A study of Mus musculus with 12 samples.

Results

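The arrays described here are the 4 of 12 that carry replicate number 3, all on the third of 3 slides: 1 array each of retina injected with silicate particles of 20 nm and of 100 nm, and 1 array each of retina injected with gold particles of 20 nm and of 100 nm. They were chosen by measured values, the Cy5 levels of this slide, in which marker genes of immune cells were far higher on both silicate arrays than on both gold arrays. The contrast of silicate with gold on this slide is therefore given as a description, with no test. The same contrast on slides 1 and 2, with 8 arrays, was not used in that choice and was tested with limma.

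The mice were C57BL/6 males of 5 weeks, without any transgene named in the labels. Each of the 4 particle groups held 12 mice, as did the group given phosphate-buffered saline (PBS). The right eye received silicate nanoparticles, gold nanoparticles or PBS by injection into the vitreous, the gel between lens and retina, and retinas were collected 7 days later. The sample annotation writes the particle sizes in nM, and the growth protocol gives diameters in nm, the reading used here. Pools of 4 retinas made 1 tube, so a value is that of a pool and 3 tubes stood for a group. On every array the particle tube was labelled with Cy5 and PBS retina with Cy3, with no dye exchanged. Each material and size sat at a fixed place on every slide, which leaves place confounded with group: they cannot be told apart. The strain label of the PBS channel reads C57BL/9 and C57BL/12 for the silicate 20 nm and silicate 100 nm arrays of slide 3, where the gold arrays read C57BL/6; whether these are strains or numbers filled down a column is not stated. Particle coating, dose and endotoxin content are not given in the labels.

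The retina holds its own immune cells, the microglia, and is normally shielded from the blood by tight vessels. When it is inflamed, neutrophils and monocytes can cross from the blood, monocytes become macrophages, and chemokines, complement and interferons act as the messengers and effectors of that reaction. Müller glia, which span the retina, respond to many kinds of injury with gliosis, marked by intermediate filaments and acute-phase proteins, while rods and cones carry out light detection with a small set of very abundant transcripts.

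Levels below are normalized log2 intensities of the Cy5 channel, where 1 unit is a factor of 2 between samples for 1 probe. A gene was measured when its probe was well above background on both silicate or on both gold arrays. It was called higher when the lower of the 2 silicate arrays lay at least 1 log2 unit above the higher of the 2 gold arrays, and lower in the mirrored case; that distance is named the gap. Of 22964 genes measured, 1445 were higher on the silicate arrays, 6.29% of all, and 38 were lower, 0.165% of all. The higher genes made up 97.4% of the calls, although the median difference over all measured genes was -0.11. A difference of at least 4 log2 units was seen for 162 of the higher genes, and 232 of them were not well above background on either gold array, so that their fold is only a lower bound. Values ran on without a break across the threshold: Sertad1 and Lamb1 lay just inside it with gaps of 1.001, and Fads3 just outside with 0.999, while among the lower genes Sag lay just inside with 1.001 and Gnb1 just outside with 0.992. With the signals that the scanner software had processed itself, 1825 genes were higher and 263 lower, and the higher share of the calls was 87.4%.

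The 4 genes that marked these pools were each at least 37.9-fold higher on the silicate arrays. Ms4a7, a membrane protein of macrophages, had levels of 14.49 and 15.07 on the silicate 20 nm and 100 nm arrays, against 7.72 and 7.73 on the gold 20 nm and 100 nm arrays. Its mean was 14.78 ± 0.41 with silicate and 7.72 ± 0.01 with gold (SD, n = 2 each), a 133-fold difference. Both silicate arrays lay far above both gold arrays, and the silicate arrays differed little from each other. S100a8, which forms the calcium-binding protein calprotectin of neutrophils together with S100a9, had levels of 12.37 and 14.56 with silicate and 6.56 and 6.38 with gold. The gold values were not well above background, which makes the difference at least 127-fold. Ctss, a lysosomal protease of antigen-presenting cells and microglia, was at 17.14 and 17.36 with silicate and at 12.31 and 11.70 with gold, a 37.9-fold difference. Here the gold arrays had a clear signal of their own. Lyz2, the lysozyme of myeloid cells, was at 13.28 and 14.02 with silicate and at 6.58 and 6.96 with gold, a 118-fold difference. Its near-identical copy Lyz1 had a difference of 7.49, and signal of either gene may come from both. In pools of retinas, more cells of a type and more RNA per cell cannot be told apart, nor can fewer cells and less RNA, and 1 array per group limits the precision of every value.

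**Figure D1:**
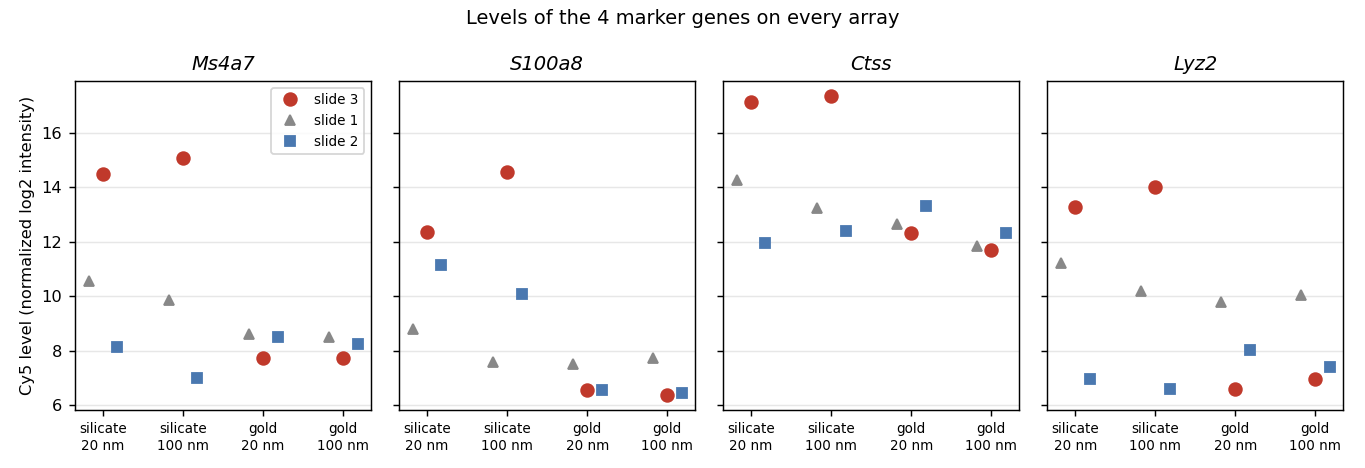
Cy5 levels in normalized log2 intensity (vertical axis) of Ms4a7, S100a8, Ctss and Lyz2 in each particle group (horizontal axis), 1 point per array, with red circles for slide 3, grey triangles for slide 1 and blue squares for slide 2. On slide 3 all 4 genes stand far higher on the silicate than on the gold arrays, as with Ms4a7 at 14.49 and 15.07 against 7.72 and 7.73. On slide 2 only S100a8 has both silicate arrays above both gold arrays, and on slide 1 only Ms4a7, Ctss and Lyz2 do.

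The largest difference among genes with a symbol was that of Saa3, a serum amyloid A protein made by inflamed tissue and macrophages. Its levels were 15.86 and 16.95 with silicate and 6.05 and 6.23 with gold, at least 1130-fold higher with silicate. The related acute-phase gene Saa1, whose probe may also bind close copies, was at 14.77 and 15.91 with silicate and at 8.42 and 8.47 with gold. Among the 12 genes with the largest differences stood products of neutrophils and macrophages alone or in part: the calprotectin subunit S100a9, the iron-binding protein Lcn2, the C-type lectin Clec4d, the macrophage gene Wfdc17, the inhibitory receptor Pirb and the platelet factor Pf4, a chemokine of platelets and macrophages. Their differences lay between 7.03 for Pf4 and 7.41 for S100a9, apart from Clec4d, which was at least 167-fold higher than gold values not well above background. The protease inhibitor Timp1, made by glia and many stressed cells, was among them with 15.78 and 14.82 with silicate and 8.36 and 7.58 with gold.

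Neutrophil genes were higher on both silicate arrays in 15 of 25 cases, and granule genes were found among those called and those not called. Beside this and the list counts that follow stands the share of all measured genes called higher, 6.29%. Of 25 list members on the array, 23 were measured, 13 of them only because of their silicate signal, and 0 were lower. The median difference over the 25 was 1.99, and it was 3.62 without the silicate 20 nm array, 5.36 with processed signals and 3.86 in the value table. Fpr1, a receptor for bacterial and mitochondrial peptides, was at 10.66 and 12.63 with silicate and at 6.21 and 6.29 with gold. Haptoglobin, Hp, an acute-phase protein also stored in neutrophils, was at 11.86 and 13.31 with silicate and at 6.82 and 6.71 with gold. In both genes the groups stood several log2 units apart. Mmp8, a collagenase of neutrophil granules, differed by 2.56. The granule enzymes that neutrophils make early in the bone marrow were not called: Mpo had a difference of -0.07 and Elane of -0.19, and Ngp was not well above background in either group. The later granule gene Ltf, lactoferrin, split the silicate pair, with 6.88 at 20 nm and 10.20 at 100 nm, against 6.63 and 6.53 with gold.

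Macrophage genes were higher on both silicate arrays in most cases. Of 33 members on the array, 31 were measured, 8 only through silicate, and 29 were higher. The median difference was 4.38. Arg1, arginase, which breaks down arginine in some activated macrophages, was at 12.59 and 14.29 with silicate and at 6.76 and 6.68 with gold. Adgre1, the F4/80 antigen, was at 12.50 and 13.42 with silicate and at 7.17 and 7.20 with gold. For both genes the silicate arrays lay several log2 units above the gold arrays, and the 100 nm array was the higher of the silicate pair. Csf1r, the receptor for the growth factor that macrophages and microglia depend on, was at 14.96 and 15.28 with silicate and at 12.17 and 11.92 with gold. Itgam, a subunit of an integrin of myeloid cells, had a difference of -0.15, Ms4a4c of 0.06, and Cd163 and Mmp12 were not measured.

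Microglia genes were higher in part. Among 17 members, 16 were measured and 11 were higher, and the median difference was 1.49. Aif1, an actin-bundling protein of microglia and macrophages, was at 13.91 and 14.60 with silicate and at 9.44 and 8.81 with gold. Trem2, a lipid-sensing receptor of both cell types, was at 14.32 and 14.31 with silicate and at 10.01 and 9.53 with gold. P2ry6, a nucleotide receptor for phagocytosis, differed by 4.17. Tmem119, of microglia, was at 10.10 and 9.53 with silicate and at 7.89 and 7.76 with gold, and Cx3cr1, the fractalkine receptor, at 12.61 and 11.72 with silicate and at 9.92 and 9.37 with gold. P2ry12, the purine receptor of resting microglia, had 8.40 and 8.42 with silicate and 8.07 and 7.96 with gold, which misses the threshold. Siglech, Gpr34 and Slc2a5, also genes of resting microglia, had differences of -0.05, -0.10 and -0.54.

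Genes of T and NK cells were higher in part, and few genes of B and plasma cells were. Of 22 genes of T and NK cells, 20 were measured, 12 of them only through silicate, and 11 were higher, with a median difference of 1.28. Cd3d, a chain of the T-cell receptor complex, was at 10.38 and 9.56 with silicate and at 6.42 and 6.18 with gold, where it was not well above background. Gzma, a granule protease of killer cells, was at 10.47 and 10.90 with silicate and at 7.04 and 6.94 with gold. Another chain of the complex, Cd3e, was at 10.34 and 9.77 with silicate and at 9.87 and 9.62 with gold, so its probe gave signal in all tubes and hardly separated them. Of 11 genes of B and plasma cells, 6 were measured and 2 were higher, and the median difference was 0.14. Those called were Blnk, an adaptor of B-cell signalling that macrophages also express, by 2.87, and Cd79b, a chain of the B-cell receptor, by 2.58. The other chain, Cd79a, had a difference of -0.17.

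Antigen presentation followed the same pattern. Of 20 genes of MHC class I, its peptide transporter and the immunoproteasome, 18 were higher, with a median difference of 2.88. B2m, the light chain of class I molecules, was at 16.40 and 16.48 with silicate and at 12.43 and 12.23 with gold. Nlrc5, the activator of class I genes, differed by 4.16 and Psmb9, an immunoproteasome subunit, by 3.97. Of 17 genes of MHC class II and dendritic cells, 11 were higher, with a median difference of 2.73. Cd74, the invariant chain that escorts class II molecules, was at 15.18 and 13.89 with silicate and at 8.92 and 8.54 with gold. H2-Ab1 and H2-Eb1, class II chains, differed by 5.85 and 5.89. Ccr7, which guides dendritic and T cells to lymph nodes, was at 10.54 and 9.44 with silicate and at 6.60 and 6.70 with gold. Probes for H2 genes may bind close copies, so values of single H2 genes are uncertain.

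Messengers that attract leukocytes were higher as ligands and as receptors. Of 26 chemokine ligands on the array, 23 were measured and 14 were higher, with a median difference of 2.34. Ccl2, which attracts monocytes, was at 12.03 and 12.71 with silicate and at 7.08 and 6.50 with gold. Ccl5, which attracts T cells and monocytes, was at 15.15 and 13.76 with silicate and at 8.04 and 7.67 with gold. Ccl8, another ligand for monocytes, differed by 6.48. Cxcl5, a ligand for neutrophils, was at least 55.0-fold higher, with gold values not well above background. Cxcl2 and Cxcl3, which share the neutrophil receptor Cxcr2, were not called: on the 20 nm array they stood at 6.58 and 6.51, on the 100 nm array at 8.89 and 9.41, and on the gold arrays between 6.00 and 6.20. Of 16 chemokine receptors, 9 were higher, among them Ccr2 of monocytes, at least 9.37-fold higher, and Cxcr2 of neutrophils, at least 3.98-fold higher, both against gold values not well above background.

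Cytokines were higher less widely, with 8 of 23 on the array and a median difference of 0.81. Il1b, a fever-inducing cytokine released after inflammasome activation, was at 11.00 and 13.21 with silicate and at 6.21 and 6.30 with gold, at least 56.2-fold higher with silicate. Tnf, a cytokine of macrophages, was at 8.08 and 9.74 with silicate and at 6.29 and 6.26 with gold. In both genes the 100 nm array was the higher of the silicate pair. Il18bp, a soluble blocker of interleukin 18, differed by 3.36. Il6, another acute cytokine, was at 7.03 and 8.42 with silicate and at 6.07 and 6.12 with gold, where it was not well above background, and was not called, and Il10 was not measured.

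Sensors and effectors of innate immunity were higher in most cases. Of 34 innate sensors and their signalling partners, 22 were higher, among them Casp4 by 5.05 and Casp1 by 4.72, proteases of the inflammasomes, Bcl3, a partner of NF-kB, by 4.55, and the receptor Tlr2, which binds bacterial lipoproteins, by 4.41. Nlrp3, an inflammasome sensor, had a difference of -0.01, and Tnfaip3, a brake on NF-kB, of -0.81. Complement genes were higher in 13 of 21 cases, with a median difference of 2.90. C3, the central complement protein, was at 16.53 and 15.72 with silicate and at 9.38 and 9.50 with gold. Cfb, a factor of its amplification loop, was at 13.34 and 13.60 with silicate and at 7.11 and 7.08 with gold. C1qa, a chain of the starter molecule made by microglia and macrophages, was at 13.66 and 13.15 with silicate and at 9.40 and 8.98 with gold. The membrane regulators Cd55 and Cd59a, which protect cells from complement, had differences of 0.19 and -0.44.

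Interferon-induced genes were higher almost throughout. Of 31 genes of the type I response, 27 were higher, with a median difference of 2.22, and of 16 interferon-induced GTPases and regulators, 15 were higher, with a median of 3.75. Gbp2, a guanylate-binding protein that attacks microbes inside cells, was at 14.02 and 14.17 with silicate and at 9.65 and 9.24 with gold. Isg15, a ubiquitin-like protein, was at 12.77 and 12.78 with silicate and at 10.34 and 9.48 with gold. On these genes the silicate pair differed by at most 0.15 of a log2 unit, while both gold arrays lay far below. Ifi47, a GTPase of the response to interferon gamma, differed by 4.80, Irf8, a transcription factor of myeloid cells, by 4.23, and Oas1a, an RNA sensor with close copies, by 4.87. The transcription factor Stat2, which carries the interferon signal, had a difference of 1.05 and was not called, with a gap just under the threshold. Ifng itself, interferon gamma, was called and was at least 3.97-fold higher, with gold values not well above background, and Ifnb1 was not measured.

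Promoter sequence was not used in the choice of arrays. The promoters of Gbp2 and Isg15, 250 bases before to 50 after the annotated start from RefSeq on GRCm38.p6, are shown because these genes stand for the GTPase and the type I list. Capitals mark the core of the interferon response element, GAAA, any 2 bases and GAAA again, on either strand. The first is chr3:142620413-142620712 on the plus strand and the second is chr4:156200769-156201068 on the minus strand, both written 5′ to 3′ along the gene.
Gbp2: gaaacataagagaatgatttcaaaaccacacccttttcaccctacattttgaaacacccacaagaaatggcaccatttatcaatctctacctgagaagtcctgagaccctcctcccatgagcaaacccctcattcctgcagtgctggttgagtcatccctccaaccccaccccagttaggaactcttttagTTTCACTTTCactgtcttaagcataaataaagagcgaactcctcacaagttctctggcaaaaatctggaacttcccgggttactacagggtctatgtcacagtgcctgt
Isg15: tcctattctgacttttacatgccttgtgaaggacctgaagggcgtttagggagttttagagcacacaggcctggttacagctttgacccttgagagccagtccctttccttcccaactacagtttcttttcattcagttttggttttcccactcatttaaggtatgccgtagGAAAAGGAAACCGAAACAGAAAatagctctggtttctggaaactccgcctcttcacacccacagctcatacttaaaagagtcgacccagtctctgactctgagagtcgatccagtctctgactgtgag
Gbp2 holds 1 match, on the opposite strand, 49 bases before the start, and Isg15 holds 3 overlapping matches, the last ending 56 bases before it. Of 23 type I genes with a promoter in the table, 13 hold the motif, 56.5%, and of 12 GTPase genes 9 do, 75%. The share over all 27025 genes with a promoter was 3.99%, and among 25 macrophage genes 3 hold it, 12.0%. A match describes these letters and is no measured binding site.

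Adhesion, digestion and defence genes of leukocytes were higher as well. Of 18 adhesion genes, 13 were higher, among them Itgb2, the shared chain of leukocyte integrins, by 4.08, and Vcam1, an adhesion molecule of activated endothelium, at 13.04 and 12.41 with silicate and at 9.81 and 9.74 with gold. Icam1, its partner in leukocyte arrest, was at least 2.33-fold higher than gold values that were not well above background. Of 29 genes of lysosomes and phagocytosis, 20 were higher, led by the lectin Lgals3 with 14.67 and 15.76 with silicate and 10.34 and 10.20 with gold. Plin2, the coat of lipid droplets, differed by 4.07. Of 25 genes of the oxidative burst and its control, 15 were higher. Ncf4 and Rac2, parts of the NADPH oxidase of phagocytes, differed by 5.38 and 4.75, and Hmox1, the stress-induced heme oxygenase, had a difference of 1.28 and was not called because the gold arrays disagreed, with 8.93 at 20 nm and 7.33 at 100 nm. Of 32 matrix and protease genes, 22 were higher, such as the matrix protein Tgfbi with 14.01 and 14.53 with silicate and 7.92 and 8.02 with gold.

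**Figure D2:**
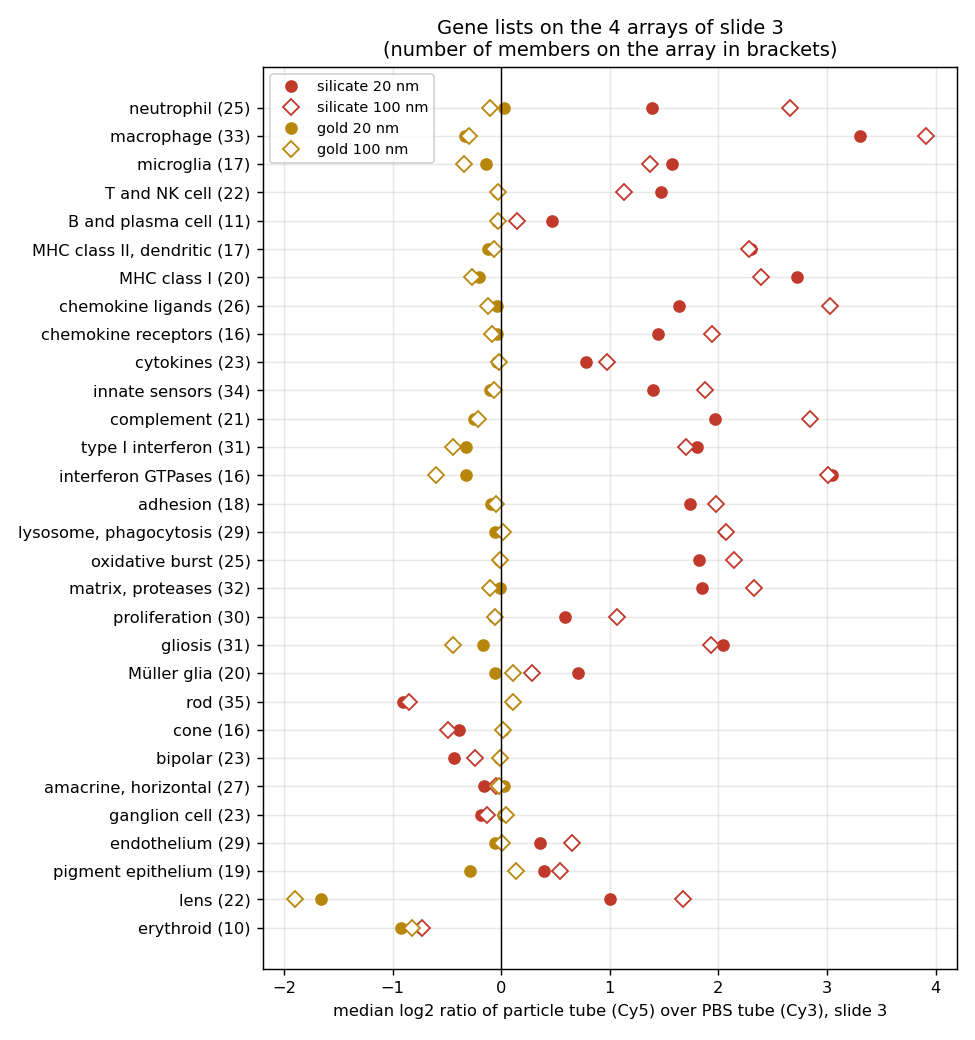
Median log2 ratio of the particle tube in Cy5 over PBS in Cy3 (horizontal axis) for each gene list (vertical axis, with the number of members on the array), 1 point per array of slide 3, red for silicate and dark yellow for gold, filled circles for 20 nm and open diamonds for 100 nm. Macrophage genes lie at 3.30 and 3.91 on the silicate arrays and at -0.33 and -0.30 on the gold arrays, while rod genes lie at -0.90 and -0.85 with silicate and lens genes lie on opposite sides of 0 in the 2 materials.

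Signs of gliosis were present on both silicate arrays. Of 31 genes of this list, 25 were higher, with a median difference of 2.55. Gfap, the filament protein of reactive astrocytes and Müller glia, was at 11.82 and 10.64 with silicate and at 8.62 and 7.77 with gold; other probes of Gfap gave differences of 2.51 and 0.64. Vim, another filament protein of glia, was at 15.47 and 15.42 with silicate and at 13.35 and 13.17 with gold. Serpina3n, a protease inhibitor of reactive astrocytes, was at 14.08 and 13.46 with silicate and at 7.83 and 7.61 with gold. Lcn2, on this list and on that of neutrophils, was at 17.61 and 16.54 with silicate and at 9.97 and 9.63 with gold. Several of these genes are also made by leukocytes and vessels, so the list does not belong to glia alone. Of 20 genes that mark Müller glia at rest, 14 had a difference above 0 and the median was 0.34. Both silicate arrays lay above both gold arrays in 10 and below them in 4, patterns shown by 26.9% and 44.3% of all measured genes. Of the 20, 2 were called higher, where 6.29% of all genes were: the matricellular Ccn1 by 2.06 and the transcriptional regulator Id3 by 1.58. Glul, the glutamine synthetase of Müller glia, was at 15.36 and 15.36 with silicate and at 15.72 and 15.90 with gold, and Rlbp1, a carrier of retinoids, was at 14.04 and 14.06 with silicate and at 14.49 and 14.49 with gold. Aqp4, their water channel, had a difference of -0.22.

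Rod genes, which define retinal tissue, gave signal on these arrays and were lower on both silicate arrays by small and even amounts. Of 35 rod genes, all measured, 34 had both silicate arrays below both gold arrays, a pattern shown by 44.3% of all measured genes. With a gap of at least 0.5, 29 were lower, where 3.49% of all genes were, and with the gap of 1 used elsewhere, 4 were lower and 0 higher. The median difference was -0.81. Sag, the arrestin of rods, was at 15.68 and 15.88 with silicate and at 16.88 and 17.10 with gold. Guca1a, which activates guanylate cyclase when calcium falls, was at 15.49 and 15.44 with silicate and at 16.74 and 16.85 with gold, a 2.51-fold higher level in gold. The silicate and gold pairs did not overlap in either gene, and within a pair the arrays lay close together. Abca4, the retinoid transporter of outer segments, and Gucy2f, a guanylate cyclase, were also called, each with -1.28. Gnat1, the rod transducin, had -0.84, and Nrl, the transcription factor that sets rod fate, -0.67.

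Cone genes had a median difference of -0.63, and none of 16 was called, while 9 were lower with a gap of at least 0.5. Arr3, the cone arrestin, was at 13.64 and 13.89 with silicate and at 14.87 and 15.36 with gold, with a gap of 0.983 just under the threshold. Opn1sw and Opn1mw, the cone opsins, had differences of -0.65 and -0.67. Genes of other retinal neurons stood closer to the median of all genes. The median was -0.36 for 23 bipolar genes, -0.31 for 23 ganglion cell genes and -0.26 for 27 genes of amacrine and horizontal cells, and no member of these lists was called. With a gap of at least 0.5, 2, 3 and 4 of them were lower, in that order, where 3.49% of all genes were. Both silicate arrays lay below both gold arrays in 15 of 23, 18 of 23 and 18 of 26 measured members. That pattern was shown by 44.3% of all measured genes. Grm6, the glutamate receptor of ON bipolar cells, differed by -0.27, Pou4f1, a transcription factor of ganglion cells, by -0.19, and Gad1, which makes the transmitter GABA, by -0.57. Under median centring the rod median was -1.09 and the median of all measured genes -0.31, so the size of these shifts depends on the scaling.

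**Figure D3:**
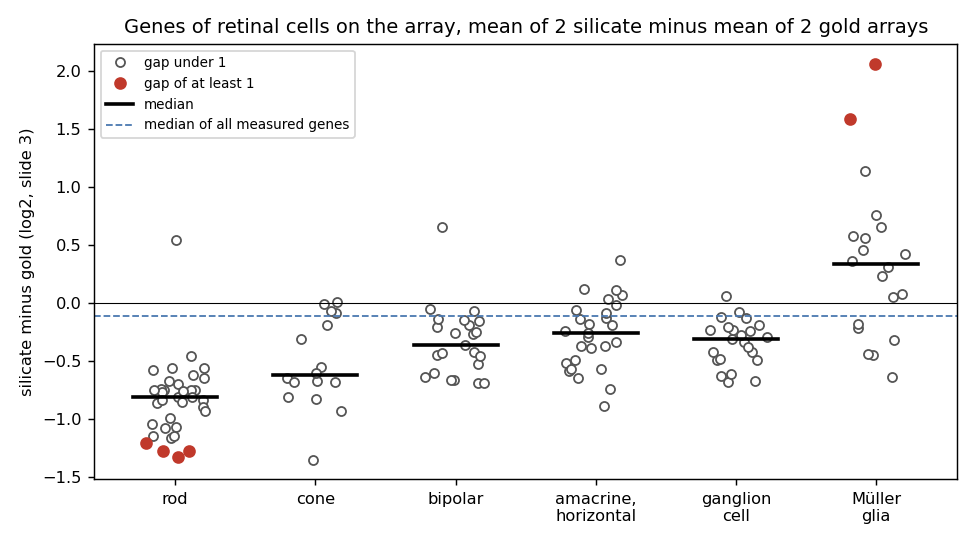
Difference of the mean of 2 silicate and the mean of 2 gold arrays of slide 3 in log2 units (vertical axis) for genes of 6 retinal cell types (horizontal axis), 1 point per gene, with filled red points for genes with a gap of at least 1, black bars for list medians and a dashed line for the median of all measured genes. Rod genes lie around -0.81 and cone genes around -0.63, the other neurons nearer to the dashed line at -0.11, and Müller glia genes on both sides of 0 with a median of 0.34.

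The promoters of the called rod genes Guca1a and Sag are shown for the motif of CRX, the homeobox factor of photoreceptors, whose core TAATCC is in capitals on either strand. The first is chr17:47400557-47400856 on the minus strand and the second chr1:87803430-87803729 on the plus strand, again from RefSeq on GRCm38.p6.
Guca1a: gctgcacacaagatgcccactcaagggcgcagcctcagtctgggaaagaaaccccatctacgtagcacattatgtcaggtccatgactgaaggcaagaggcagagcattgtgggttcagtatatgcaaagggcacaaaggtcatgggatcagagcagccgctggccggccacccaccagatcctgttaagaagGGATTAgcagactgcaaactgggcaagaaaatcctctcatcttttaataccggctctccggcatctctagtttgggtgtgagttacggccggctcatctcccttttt
Sag: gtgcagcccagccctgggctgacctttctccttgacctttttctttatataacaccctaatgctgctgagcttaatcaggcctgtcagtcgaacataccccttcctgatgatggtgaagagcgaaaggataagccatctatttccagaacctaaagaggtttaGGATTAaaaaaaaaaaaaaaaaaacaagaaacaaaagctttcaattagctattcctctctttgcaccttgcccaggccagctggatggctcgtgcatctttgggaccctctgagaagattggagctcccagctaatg
Each holds 1 match on the opposite strand, 51 and 81 bases before the start. Of 25 rod genes with a promoter in the table, 10 hold the core, 40.0%, and of 12 cone genes 2 do, 16.7%. The share over all genes was 8.14%. Among 25 macrophage genes 5 hold the core, 20.0%, a larger share than among cone genes. Of 23 type I interferon genes 3 hold it, and of 12 GTPase genes 1 does, 8.33%. Of the 25 rod promoters, 0 hold the interferon motif, and none of the 4 promoters printed holds both motifs.

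The lower calls reached beyond the rod and cone lists, which held 4 of them. Which cells express the other lower genes was not tested. Of 38 lower genes, 24 had a gene symbol, and the 12 with the largest difference included only 1 of the rod list. Glb1l3, a gene related to beta-galactosidase, was at 7.85 and 7.80 with silicate and at 10.25 and 10.14 with gold, the largest difference with -2.37 and a 5.18-fold higher level in gold. Pdzph1, a gene with protein interaction domains, was at 13.01 and 13.20 with silicate and at 14.80 and 14.74 with gold. Hdc, the enzyme that makes histamine, was at 11.13 and 11.86 with silicate and at 12.91 and 12.89 with gold. Each had tight gold values and no overlap. Gchfr, a regulator of tetrahydrobiopterin synthesis, had a difference of -1.41, Ttll11, a tubulin-modifying enzyme, of -1.71, Csrp3, a muscle LIM protein, of -1.77, and Gnat3, the transducin of taste cells, of -1.38.

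Among genes of tissues next to the retina, those of the lens separated the materials most widely, while most members of the other lists were not called. Over all measured genes, 6.29% were called higher. The part of these tissues in the other results was not tested. Of 22 lens genes, 18 were higher and 0 lower, with a median difference of 2.84. Cryaa, the alpha crystallin of lens fibres, was at 18.12 and 18.26 with silicate and at 15.77 and 15.90 with gold. Crygf, a gamma crystallin with close copies, was at 12.34 and 13.63 with silicate and at 7.22 and 7.06 with gold. The lens genes were also far from PBS on the gold arrays: the list medians of the log2 ratio to PBS were 1.00 and 1.67 on the silicate 20 nm and 100 nm arrays and -1.66 and -1.90 on the gold 20 nm and 100 nm arrays, and 18 of the 22 had both gold ratios at -1 or below. Of 19 pigment epithelium genes, 3 pigment genes were higher, Mlana by 1.61, Dct by 1.57 and Tyrp1 by 1.42, while Rpe65, the isomerase of the visual cycle, differed by -0.43. Of 23 genes of the ocular surface, ciliary body and muscle, 6 were higher, led by Myl1, a light chain of fast muscle myosin, with 9.68 and 12.07 with silicate and 7.22 and 6.82 with gold. Of 29 endothelial and barrier genes, 4 were higher, among them the clotting factor carrier Vwf by 2.1, while the tight junction gene Cldn5 had 0.78 and was not called. Red blood cell genes did not separate the materials: of 10, 7 were measured and 0 called, and the median difference was 0.04.

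Set against PBS retina on the same arrays, far more genes were high with silicate than with gold. A log2 ratio of Cy5 to Cy3 of at least 1 on both arrays was found for 1661 genes with silicate, 7.23% of those measured, and for 53 with gold, 0.231%. In the other direction, with ratios of -1 or below on both arrays, there were 77 genes with silicate, 0.335%, and 111 with gold, 0.483%. Of the 1445 genes higher with silicate than with gold, 1375 had both silicate ratios at 1 or above and 1363 had both gold ratios within 1 of PBS. Of the 38 lower genes, all had both silicate ratios below 0, and 18 had both at -1 or below. Ms4a7 had ratios of 6.51 and 7.03 with silicate and of -0.34 and -0.31 with gold. These ratios carry any dye effect of a probe, since dyes were not exchanged, and for some of the highest genes the PBS signal itself differed between arrays. In Cy3, 31 genes were at least 1 log2 unit higher on both silicate arrays than on both gold arrays, 0.135% of those measured, among them Saa3, Lcn2 and Timp1.

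The 100 nm and 20 nm silicate arrays of slide 3 differed in matrix, neutrophil and chemokine genes. Slides 1 and 2 did not repeat the direction for the matrix and neutrophil lists and were split for the chemokine ligands. The chemokine ligand list had a median of 0.77 for 100 nm minus 20 nm on slide 3, and of -0.15 and 0.14 on slides 1 and 2. In the 100 nm tube 249 genes were at least 1 log2 unit higher than in the 20 nm tube, 1.08% of those measured, and 117 at least 1 lower, 0.509%. For gold the counts were 59, or 0.257%, and 118, or 0.514%. Among the genes higher at 100 nm, Lum, a collagen-binding proteoglycan, was at 12.09 at 100 nm and 7.51 at 20 nm, Col3a1, a fibrillar collagen, at 13.52 and 9.22, and Col1a1, the main collagen of scar and bone, at 13.84 and 10.31. On the gold arrays Lum was at 7.18 at 100 nm and 7.39 at 20 nm. On slides 1 and 2 the order was turned round: Lum was at 7.03 and 6.91 at 100 nm and at 8.64 and 9.15 at 20 nm. Col3a1 was at 7.45 and 7.11 at 100 nm and at 10.21 and 9.61 at 20 nm on those slides. The matrix and protease list had a median of 0.60 for 100 nm minus 20 nm on slide 3, and of -0.27 and -0.11 on slides 1 and 2. The neutrophil list had a median of 1.39 for 100 nm minus 20 nm in silicate and of -0.05 in gold, and in silicate of -0.10 on each of slides 1 and 2. S100a9 was at 15.98 at 100 nm and 13.63 at 20 nm, and Pf4 at 16.38 at 100 nm and 13.10 at 20 nm. On slides 1 and 2 S100a9 was at 10.89 and 11.75 at 100 nm and at 11.32 and 13.22 at 20 nm, lower at 100 nm on both. Pf4 was also lower at 100 nm there, at 11.23 and 7.25 against 11.48 and 8.99 at 20 nm. Macrophage genes had a median of 0.74 in silicate and -0.03 in gold on slide 3, and in silicate of -0.42 and -0.16 on slides 1 and 2. MHC class II genes had a median of -0.46 on slide 3 and of 0.02 and -0.13 on slides 1 and 2, and Cd74 had a difference of -1.29 on slide 3. Lower at 100 nm were also Olfml3, a secreted gene of microglia, at 11.06 against 12.97 at 20 nm, and Ccl5, at 13.76 against 15.15. On slides 1 and 2 Ccl5 was higher at 100 nm, at 9.54 and 7.88 against 9.21 and 7.57 at 20 nm. The interferon GTPases had a median of -0.12 and rod genes of 0.08.

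**Figure D4:**
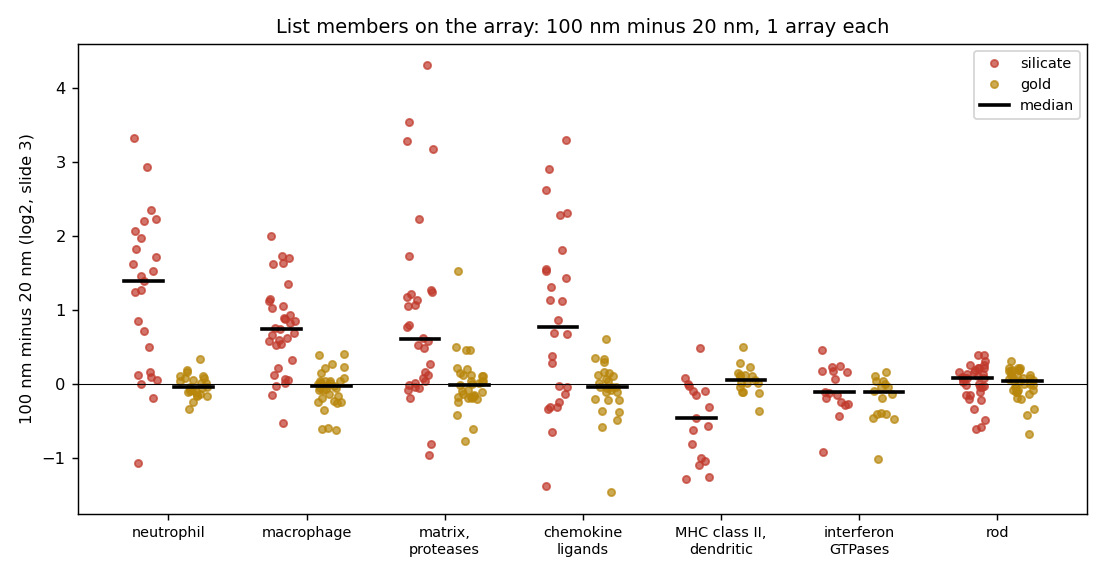
Level at 100 nm minus level at 20 nm in log2 units (vertical axis) for the members of 7 gene lists (horizontal axis), 1 array of each size on slide 3, 1 point per gene, red for silicate and dark yellow for gold, with black bars for list medians. In silicate the neutrophil genes centre on 1.39 and the macrophage genes on 0.74, MHC class II genes lie mostly below 0 with a median of -0.46, and in gold the same lists centre near 0.

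Slides 1 and 2 held tubes of the same 4 groups that the choice did not use. A limma fit of the 8 arrays tested 22420 genes, and after Benjamini-Hochberg adjustment 0 were higher and 0 lower with silicate at a threshold of 0.05, which is 0.0% in either direction. At an unadjusted p under 0.05 there were 551 higher genes, 2.46%, and 521 lower genes, 2.32%. Leaving out the silicate 20 nm tube of slide 2 gave 84 higher and 8 lower genes, so the counts moved with that tube. This fit had no term for the slide, and each slide held 1 tube per group, so its p-values and SE measure the spread between slides 1 and 2. With the replicate number as a block, limma gave 0 higher and 0 lower genes as well. At an unadjusted p under 0.05 that fit had 1056 higher and 853 lower genes. The labels do not say whether tubes came from separate injection days.

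Macrophage and interferon genes had medians of opposite sign on slides 1 and 2. So had gliosis genes, with 0.60 and -0.33, MHC class I genes, with 0.31 and -0.34, and complement genes, with 0.22 and -0.46. Microglia genes had 0.12 and -0.27, and genes of lysosomes and phagocytosis 0.31 and -0.21. Medians of the same sign on both slides were those of neutrophil genes, 0.05 and 0.21, innate sensors, 0.08 and 0.02, and chemokine receptors, 0.09 and 0.03. Of the 1445 higher genes, 607 had both silicate arrays above both gold arrays on slide 1, where 16.1% of all measured genes did, and 175 on slide 2, where 18.3% did. Their share thus lay above that of all genes on slide 1 and below it on slide 2. Among the 1282 of the 1445 that were tested, 82 were higher and 5 lower at an unadjusted p under 0.05 in limma. Of all tested genes, 2.46% were higher and 2.32% lower at that level. Ms4a7 was at 10.55 and 9.88 on the silicate 20 nm and 100 nm arrays of slide 1, against 8.61 and 8.49 on the gold 20 nm and 100 nm arrays. On slide 2 it was at 8.15 and 7.00 with silicate and at 8.49 and 8.25 with gold. The order of the materials thus reversed between these slides, and over both the difference was 0.44 ± 0.71 (SE, n = 4 arrays each, limma adjusted p = 1.0). With the replicate number as a block, the limma adjusted p of Ms4a7 was 0.823. Ctss differed by 1.52 on slide 1 and by -0.62 on slide 2, and Lyz2 by 0.77 and -0.95. On slide 1 Ms4a7, Ctss and Lyz2 each had both silicate arrays above both gold arrays. Of the 4 markers S100a8 had the largest difference over both slides, though its silicate and gold arrays overlapped on slide 1. On slide 2 it was at 11.16 and 10.07 with silicate and at 6.54 and 6.44 with gold, and on slide 1 at 8.80 and 7.60 with silicate and at 7.51 and 7.75 with gold. Its difference over both slides was 2.35 ± 0.71 (SE, n = 4 arrays each), with an unadjusted p of 0.0129 and a limma adjusted p of 0.83. With the replicate number as a block, the limma adjusted p of S100a8 was 0.499. The neutrophil partner S100a9 differed by 0.17 on slide 1 and 5.16 on slide 2, Clec4d by 0.78 and 0.91, and Il1b by 0.17 and 1.89. Acute-phase genes were high on every array of slide 1, which lies beside any result from it. Saa3 was at 13.19 and 13.14 with silicate and at 12.61 and 13.19 with gold there. On slide 2 Saa3 was at 7.36 and 7.92 with silicate and at 6.61 and 6.38 with gold. On slide 1 its PBS signal in Cy3 averaged 17.50 over the 4 arrays, above its Cy5 mean of 13.03. The PBS means there were also above those of Cy5 for Lcn2, with 17.49 and 15.27, and for Lyz2, with 13.06 and 10.31. Whether the particle tubes or the reading of the channels gave the high Cy5 levels of slide 1 was not tested. Their part in the other slide 1 values was not tested either. The macrophage list had medians of 0.37 and -0.22 on slides 1 and 2, and the type I interferon list of 0.35 and -0.28.

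The genes that were lower on slide 3 were mostly lower on slides 1 and 2 too. Of the 24 with a symbol, 23 had a difference below 0 over slides 1 and 2, and 15 had an unadjusted p under 0.05 in limma, where 2.32% of all tested genes were lower at that level. On both slides 13 had both silicate arrays below both gold arrays, a pattern of 4.96% of all tested genes. None passed the adjustment in this fit, and with the slide as a random block Gsc2 did (limma adjusted p = 0.0496). With the replicate number as a block, Gsc2 did not (limma adjusted p = 0.0836). Gsc2, a homeobox gene, differed by -1.02 on slide 1 and -0.88 on slide 2 (limma adjusted p = 0.122), Ip6k3, an inositol phosphate kinase, by -0.75 and -1.08 (limma adjusted p = 0.122), and Hdc by -0.99 and -0.71 (limma adjusted p = 0.141). Glb1l3 was at -1.09 and -0.86 on those slides, with a limma adjusted p of 0.46. Of the rod genes called, Guca1a differed by -0.63 and -0.38 (limma adjusted p = 0.255) and Sag by -0.28 and -0.50 (limma adjusted p = 0.561). The rod list had medians of -0.18 and 0.04 on slides 1 and 2, against -0.81 on slide 3. Since the place of each group on a slide was the same on all 3 slides, the repeat between slides cannot tell material from place.

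**Figure D5:**
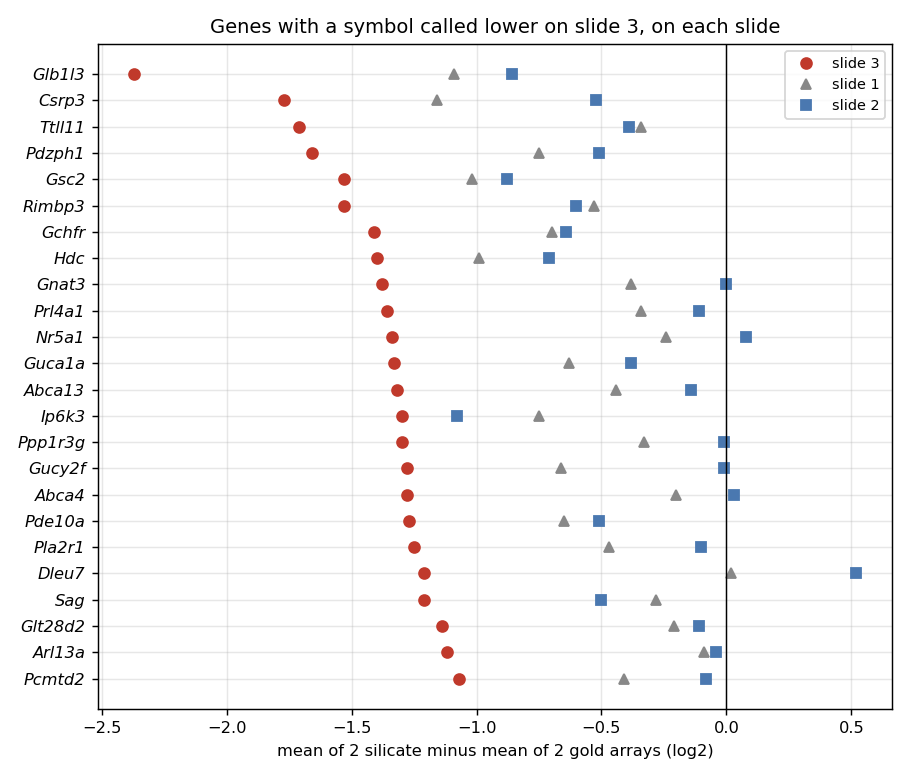
Mean of 2 silicate minus mean of 2 gold arrays in log2 units (horizontal axis) for the 24 genes with a symbol called lower on slide 3 (vertical axis), with red circles for slide 3, grey triangles for slide 1 and blue squares for slide 2. Most genes lie left of 0 on all 3 slides, with Glb1l3 at -2.37, -1.09 and -0.86, while Dleu7 lies at 0.02 and 0.52 on slides 1 and 2.

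The gamma crystallins Cryge and Crygf had higher values with silicate on all 3 slides. Cryge differed by 5.77 on slide 3, 2.73 on slide 1 and 5.03 on slide 2 (limma adjusted p = 0.442 over slides 1 and 2), and Crygf by 5.85, 2.81 and 5.06 (limma adjusted p = 0.479). Both probes may bind the same transcripts. The pigment genes turned round, with Tyrp1 at 1.42 on slide 3 and -0.42 and -2.11 on slides 1 and 2. Lens genes as a list had medians of -0.10 and 0.55 on slides 1 and 2.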

How the data were processed

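RNA of pooled retinas was hybridised to 12 two-colour Agilent mouse arrays. The deposited scanner files hold spot intensities and the software's own log10 ratio of Cy5 to Cy3. The headers name version 11.0.1.1 of Agilent's Feature Extraction, and the submitters' processing notes name 9.3.2.1. The deposited value table holds 1 value per probe, whose scale matched log2 of that ratio by slopes of 3.3 to 3.32, while its centring stays unknown; its medians on slide 3 were 0.091 and 0.114 for silicate 20 nm and 100 nm and 0.045 for each gold array.

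From the median signals, background was corrected by normexp with an offset of 50, which compresses differences of dim probes. Arrays were normalized by loess within and Aquantile between arrays in limma 3.58.1 (R 4.3.3), and levels are those of Cy5. Control spots and outlier spots had no weight in loess. Between 68.3% and 73.8% of spots were well above background in Cy5, and no spot was saturated. Of 39429 probes, 26055 had a gene symbol through RefSeq, giving 19751 genes, and the brightest probe stood for a gene. A lower bound sets a dim gold value at no less than the lowest signal well above background on that array.

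Slides 1 and 2 were fitted in limma as 4 group means, over genes well above background on at least 4 of 8 arrays, with Benjamini-Hochberg adjustment at 0.05 and moderated tests. The replicate number is the slide per the file headers, so it pairs arrays: deviations from group means correlated between 0.268 and 0.487 within slides. Named genes were the 4 markers, the 12 highest and 12 lowest with a symbol, the top 3 of each list and textbook genes. Some genes of the lists are not reported here by name. Other genes were picked from the lists or the ranking by size after their values were seen. The arrays, members and lists were chosen with earlier results of these data known. The methods were tested on simulated data.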

Additional observations from a re-analysis of the deposited data

Results flagged for a closer look

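The Cy3 channel, which carries PBS retina and is not part of the silicate and gold levels, was not even across slide 3. For 31 genes, 0.135% of those measured, the Cy3 level was at least 1 log2 unit higher on both silicate arrays than on both gold arrays, and all 31 were among the genes called higher in Cy5. Saa3 had the largest such difference with 5.1: its Cy3 levels were 10.81 and 11.78 on the silicate arrays and 6.03 and 6.36 on the gold arrays. Lcn2 followed with 4.16, from 14.56 and 13.59 on the silicate arrays and 9.88 and 9.94 on the gold arrays. Timp1 had 3.46, from 12.07 and 11.15 on the silicate arrays and 8.31 and 7.99 on the gold arrays. On the silicate 20 nm and 100 nm arrays the raw Cy3 signal was 2.50% and 2.06% of the raw Cy5 signal for Saa3, 8.52% and 9.35% for Lcn2 and 6.22% and 6.36% for Timp1. Ms4a7, also called higher in Cy5, had Cy3 levels of 7.99 and 8.04 on the silicate arrays and 8.06 and 8.04 on the gold arrays. Whether the PBS tubes or the reading of the channels differed was not tested.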

How the results depend on the processing

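The 1445 higher genes on slide 3 numbered between 1201 with median centring and 2068 in the value table under every other scaling, probe or filter setting run, while the 38 lower genes numbered 263 with processed signals, 83 with Cy5 quantile normalization, 160 with median centring and 87 in the value table. Leaving out 1 array gave 1574 to 1772 higher and 64 to 101 lower genes, since 1 array then stands alone on a side. Requiring a gap of 0.5 gave 2424 and 802, a gap above 0 gave 6181 and 10175, and a gap of 2 gave 602 and 1. The macrophage median of 4.38 was 5.64 with processed signals, 4.97 with an offset of 16, 4.06 as a log2 ratio and 4.94 in the value table, and 4.26 to 4.95 leaving out 1 array. The neutrophil median of 1.99 was 5.36 with processed signals and 3.86 in the value table, and 1.37 to 3.62 leaving out 1 array, highest without the silicate 20 nm array. The rod median of -0.81 was -1.09 with median centring and -1.05 as a ratio; against PBS it was -0.88, -0.64 with median centring and -1.04 with processed signals. Why these moved was not tested.

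On slides 1 and 2 the fit with the replicate number as a block gave 0 higher and 0 lower genes, with 1056 and 853 at an unadjusted p under 0.05, and changed no call. Lower genes numbered 3 with the slide as a random block and 2 with Cy5 quantile normalization. Leaving out 1 array gave 0 to 84 higher and 0 to 8 lower genes. The highest of both came without the silicate 20 nm tube of slide 2, where Hdc differed by -0.95 and passed (limma adjusted p = 0.0235, range 0.0235 to 1.0), and 3 lower came without the gold 20 nm tube of slide 1. Leaving out 1 array gave -0.28 to 1.16 for Ms4a7 (0.44), with a second value below 0 of -0.16, and -1.15 to 0.98 for Lyz2 (-0.09), with further values above 0 of 0.35, 0.58 and 0.81; Ctss (0.45) gave -0.13 to 1.03; within single slides Ms4a7 was -0.79 and Ctss -0.62 on slide 2 and Lyz2 0.77 on slide 1. Levels near background limit the folds of dim genes.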

Other observations

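Genes of cell division were higher with silicate in part. Of 30 on the array, 27 were measured, 10 were higher and 0 lower, with a median difference of 0.86. Of all measured genes, 6.29% were higher. Mki67, a protein of dividing nuclei, differed by 2.53, Birc5, which acts in chromosome segregation, by 2.58, and Rrm2, a subunit of ribonucleotide reductase, by 2.48. Bub1b, a mitotic checkpoint kinase, had a difference of -1.05 and was not called.

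Of 25 genes of cell death and stress, 12 were higher and 0 lower, with a median of 1.00, where 6.29% of all measured genes were higher. Fas, a death receptor, differed by 3.00, Gadd45b, a stress gene, by 2.61, and Cdkn1a, a cell cycle inhibitor, by 2.40. Of Ripk3 and Mlkl, which carry out necroptosis, Mlkl differed by 1.53, and Ripk3 was at least 7.2-fold higher than gold values not well above background. Bax, which promotes apoptosis, had 0.36 and Ddit3, a gene of the stress response, 0.01, neither of them called.

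Of 11 genes of mast cells and eosinophils, 5 were measured. Tpsb2, a tryptase of mast cells, was at 10.62 and 10.75 with silicate and at 9.24 and 9.09 with gold, while Hdc was lower. Kit, the stem cell factor receptor, had a difference of 0.49, and Cpa3, Cma1 and Fcer1a were not well above background on both arrays of either material.

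Zik1, a zinc finger gene, was at 8.76 and 16.45 on the silicate 20 nm and 100 nm arrays and at 9.23 and 9.20 on the gold arrays. Both dyes of its spot on the silicate 100 nm array were extreme, with raw signals of 107623 in Cy5 and 263945 in Cy3.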
